A study of Mus musculus with 4 samples.

Results

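Hepatic expression of 10 genes of the acute phase response was examined in 4 male aP2-SREBP-1c mice. These genes were the serum amyloid genes Saa1, Saa2, Saa3 and Saa4, the lipocalin Lcn2, the orosomucoid genes Orm1 and Orm2, haptoglobin (Hp), serum amyloid P component (Apcs) and the metalloreductase Steap4. They were chosen by symbol, with earlier results of these data known. Each of the 10 was represented by 1 probe set that carried no other symbol, out of 19938 genes represented on the arrays. All mice carry the aP2-HA-hSREBP-1c-NT transgene on the C57Bl6 strain, in which the aP2 promoter directs the HA-tagged, transcriptionally active N-terminal part of human SREBP-1c to adipocytes. The study describes these mice as lipodystrophic, with overexpression of the transgene in adipocytes only. The mice received regular chow, were 24 weeks old according to their labels and were not given any other treatment that the labels name. Liver RNA (150 ng per animal) was labelled and measured on 1 Mouse Gene 1.0 ST array per mouse, and values are log2 expression values summarized by RMA. There is only 1 group, since the study's other genotypes were not analysed here. Accordingly, levels and the spread between mice are described, without a test between groups.

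The acute phase response is the change in the plasma proteins released by the liver after infection, tissue injury or inflammation. Interleukin 6 acts through its receptor and STAT3, and interleukin 1 and tumor necrosis factor through NF-kappaB. C/EBP factors act at the promoters of many acute phase genes in hepatocytes. In mice, Saa1, Saa2 and Lcn2 are strongly induced in liver during the response, whereas Saa4 is regarded as a constitutive family member. Saa3, Lcn2 and Steap4 are also expressed by macrophages, neutrophils or adipocytes.

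Probe sets for olfactory and vomeronasal receptors (1212 in number), which liver should not express, served as background. Genes were regarded as above background if their value was higher than the 95th percentile of these probe sets in every mouse. This limit lay between 5.33 and 5.52 on the log2 scale and was exceeded by 61.5% of all genes and by all 10 acute phase genes. Of the 12265 genes above background, 12.9% showed a range (highest against lowest mouse) above 1.5-fold. The array of mouse 1 stood apart from the others, with correlations across genes of 0.974 to 0.982 against 0.986 to 0.993 among mice 2, 3 and 4, and 46.1% of all genes above background had their lowest value in mouse 1. Among mice 2, 3 and 4 alone, a range above 1.5-fold was found for 2.67%. After quantile normalization of the 4 arrays, 10.6% did so. Therefore, ranges without mouse 1 and after quantile normalization are given for the 10 genes, and for other genes where a range above 1.5-fold was lost. In liver tissue, fewer cells of a type and less RNA per cell cannot be told apart.

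All 10 acute phase genes had their lowest value in mouse 1, as did 46.1% of all genes above background. For 9 of the 10, mouse 4 had the next lowest value, but below mouse 2 by only 0.02 (log2) for Apcs and 0.06 for Saa3. Among all genes above background, 22.6% showed this order, and 5.76% showed it with a range above 1.5-fold, as did 7 of the 10 genes. A difference of more than 1.5-fold between mice was found for 8 of the 10 genes, against 12.9% of all genes above background. These 8 were Saa1, Saa2, Saa3, Lcn2, Orm1, Orm2, Apcs and Steap4. The ranges of Orm1 (0.59) and Apcs (0.59) lay just above the 1.5-fold limit of 0.58 on the log2 scale, and that of Saa4 (0.47) was the closest below it. More than 2-fold differences were found for Lcn2, Saa2, Saa1 and Orm2, against 1.13% of all genes above background. When each mouse was compared to the mean of the other 3, the median difference of the 10 genes was -0.75 in mouse 1, 0.28 in mouse 2, 0.36 in mouse 3 and -0.04 in mouse 4. Without mouse 1, the medians were 0.10 in mouse 2, 0.20 in mouse 3 and -0.21 in mouse 4. Over all genes above background, the corresponding medians were -0.08, 0.03, 0.05 and 0.02. Because each mouse is set against the other 3, a low value of mouse 1 by itself makes the differences of mice 2, 3 and 4 higher.

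**Figure D1:**
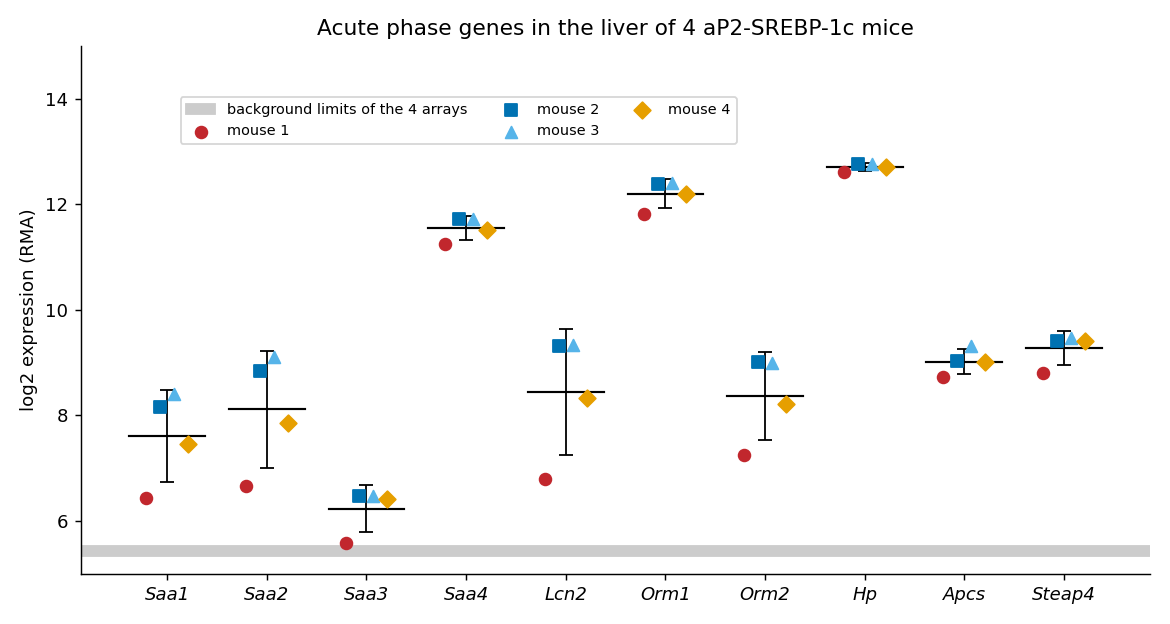
Log2 expression (RMA, vertical axis) of the 10 acute phase genes in the liver of the 4 aP2-SREBP-1c mice. Symbols stand for mice, black lines and bars for mean ± SD, and the grey band for the background limits of the 4 arrays (5.33 to 5.52). Mouse 1 lies lowest for every gene, by the widest margin for Lcn2 and Saa2, and levels of different probe sets cannot be ranked against each other.

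The promoters of Saa1, Saa2, Lcn2 and Orm2 are shown because these genes differed most between the mice. Each sequence is taken from RefSeq (GRCm38.p6), runs 5′ to 3′ from 250 bases before to 50 bases after an annotated start, and has matches to the C/EBP motif TTGCNNAA, read on either strand, in capitals. The window of Saa1 is chr7:46742931-46743230 on the minus strand, that of Saa2 chr7:46751583-46751882 on the plus strand, that of Lcn2 chr2:32387690-32387989 on the minus strand and that of Orm2 chr4:63362199-63362498 on the plus strand.
Saa1: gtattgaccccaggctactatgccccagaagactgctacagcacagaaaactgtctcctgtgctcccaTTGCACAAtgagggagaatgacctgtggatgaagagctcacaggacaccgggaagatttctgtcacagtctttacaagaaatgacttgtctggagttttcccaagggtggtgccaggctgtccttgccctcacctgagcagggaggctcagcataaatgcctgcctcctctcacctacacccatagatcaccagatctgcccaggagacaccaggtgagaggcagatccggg
Saa2: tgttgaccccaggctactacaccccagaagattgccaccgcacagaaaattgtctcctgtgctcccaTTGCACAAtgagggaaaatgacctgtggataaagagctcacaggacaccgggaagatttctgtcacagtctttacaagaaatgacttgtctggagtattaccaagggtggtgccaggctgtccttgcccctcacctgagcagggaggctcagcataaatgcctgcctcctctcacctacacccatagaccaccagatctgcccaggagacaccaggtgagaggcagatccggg
Lcn2: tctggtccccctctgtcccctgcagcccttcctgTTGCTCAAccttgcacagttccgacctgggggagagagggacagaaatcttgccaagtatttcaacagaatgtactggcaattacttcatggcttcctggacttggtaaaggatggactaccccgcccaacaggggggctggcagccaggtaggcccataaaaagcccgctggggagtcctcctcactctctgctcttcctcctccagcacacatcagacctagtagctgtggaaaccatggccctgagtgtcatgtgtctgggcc
Orm2: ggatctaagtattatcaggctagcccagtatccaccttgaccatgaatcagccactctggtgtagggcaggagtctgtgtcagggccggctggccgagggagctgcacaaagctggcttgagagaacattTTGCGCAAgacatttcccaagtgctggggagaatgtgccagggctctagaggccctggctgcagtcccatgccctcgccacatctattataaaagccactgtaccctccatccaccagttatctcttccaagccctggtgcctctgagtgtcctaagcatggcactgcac

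Promoter windows were found for 8 of the 10 genes, and not for Orm1 and Hp. The C/EBP motif was present in 7 of the 8 windows, with Apcs as the exception, and in 10.8% of 32851 windows of all genes. In Saa1 and Saa2 the match began at positions -182 and -183 from the start, and both held the same letters TTGCACAA. These windows were 95.3% identical over 301 aligned positions, so that both matches stand for 1 shared sequence. The match of Orm2, TTGCGCAA, reads the same on both strands and began at position -120, and that of Lcn2, TTGCTCAA, at position -216. Matches began at position -99 in Saa3, at -87 in Steap4 and at -245 and -52 in Saa4. Counted by gene, the motif was found for 9 of 20 other positive acute phase genes, 4 of 9 negative acute phase genes and 12.2% of all genes. It was also found for 4 of 10 hepatocyte markers and 6 of 12 neutrophil markers, so that it was not particular to acute phase genes. For pancreatic acinar markers it was 2 of 13, and for cytokine receptors 1 of 12. The STAT motif TTCNNNGAA was found in Apcs and Steap4 and in 8.3% of all windows. The kappaB motif, read on both strands, was found in Steap4 and in 8.46% of all windows. No matches of different motifs overlapped each other in these windows. A motif match describes the sequence only, and binding was not measured.

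**Figure D2:**
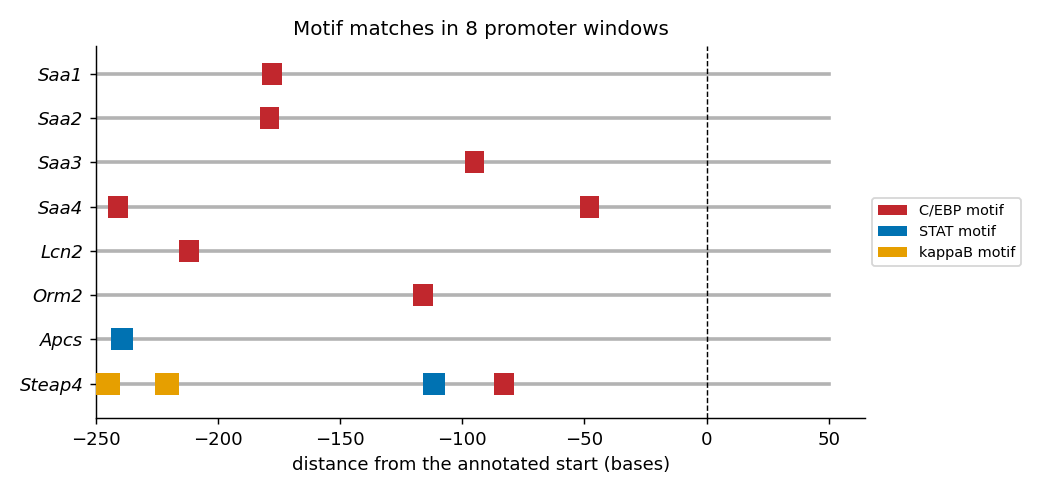
Positions of matches to the C/EBP, STAT and kappaB motifs in the 8 promoter windows, as distance in bases from the annotated start (horizontal axis, from -250 to 50). Each grey line is the window of 1 gene and each box a match. C/EBP matches are present in every window except that of Apcs.

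Among the serum amyloid genes, Saa2 (probe set 10553274) differed most. Its values were 6.65, 8.85, 9.10 and 7.85 in mice 1 to 4, with a mean of 8.11 ± 1.11 (SD, n = 4) and a 5.47-fold range. Mice 2 and 3 were high, mouse 4 lay between and mouse 1 was low. Saa2 encodes an inducible serum amyloid A protein that is carried by high density lipoprotein in plasma. Saa1 (probe set 10563611), which encodes the closely related second inducible protein, was measured at 6.43, 8.15, 8.40 and 7.46 in mice 1 to 4. Its mean was 7.61 ± 0.88 (SD, n = 4), with a 3.90-fold range and the same order of the mice. One-group limma fits over all genes above background gave 95% confidence intervals of 7.44 to 8.79 for Saa2 and 7.07 to 8.15 for Saa1. In these fits, variances are drawn towards the common variance (median SD 0.15), so the intervals are narrower than the SDs of these genes alone would give. Saa1 and Saa2 are near-identical copies that RefSeq also lists under each other's symbol, and the sharing of signal between their probe sets was not tested.

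Without mouse 1, the range was still 2.38-fold for Saa2 and 1.92-fold for Saa1. After quantile normalization it was 5.07-fold for Saa2 and 3.71-fold for Saa1. The spread of these genes was thus not limited to mouse 1 or to the deposited scaling. Mouse 4 exceeded mouse 1 by 2.29-fold for Saa2 and 2.03-fold for Saa1, and the lower of mice 2 and 3 exceeded mouse 4 by 1.99-fold and 1.62-fold. Among all 12265 genes above background, the range of Saa2 ranked 7th and that of Saa1 14th.

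Saa3 is the family member that macrophages and adipocytes express in mice. Its probe set (10563597) was measured at 5.58, 6.47, 6.48 and 6.41 in mice 1 to 4, with a mean of 6.23 ± 0.44 (SD, n = 4). Mice 2, 3 and 4 lay together and mouse 1 was low. The value of mouse 1 was only 0.05 above its background limit, so that the 1.87-fold range of Saa3 is limited by signal over background. Without mouse 1, the range was 1.05-fold, and after quantile normalization of all 4 arrays 1.95-fold. Saa4, the constitutive member, was measured at 11.25, 11.72, 11.72 and 11.51 (probe set 10563602) with a mean of 11.55 ± 0.22 (SD, n = 4). Mouse 1 was lowest and mouse 4 next, but the range was 1.38-fold (1.16-fold without mouse 1 and 1.22-fold after quantile normalization) and 26.1% of all genes above background had a range at least as large. The 4 genes lie next to each other on chromosome 7 in the order Saa3, Saa4, Saa1 and Saa2, according to RefSeq. Ranges thus differed between neighbours in 1 gene cluster, from 1.38-fold for Saa4 to 5.47-fold for Saa2.

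Lcn2 (probe set 10481627) encodes lipocalin 2, which binds bacterial siderophores and withholds iron from bacteria. It showed the widest range of the 10 genes, with values of 6.80, 9.31, 9.34 and 8.33 in mice 1 to 4 and a mean of 8.45 ± 1.19 (SD, n = 4, 95% confidence interval 7.73 to 9.17). As for Saa1 and Saa2, this interval rests on a variance drawn towards the common variance. It is narrower than the SD of Lcn2 alone would give. Mice 2 and 3 differed by only 0.03 on the log2 scale, mouse 4 lay between and mouse 1 was lowest. The range was 5.805-fold, the 5th widest of all genes above background, 2.01-fold without mouse 1 and 5.46-fold after quantile normalization. The promoter of Lcn2 shown above holds its C/EBP match farther from the start than those of Saa1, Saa2 and Orm2.

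The orosomucoids, or alpha-1-acid glycoproteins, are lipocalins that bind lipophilic ligands and drugs in plasma. Orm2 (probe set 10505451) was measured at 7.25, 9.01, 8.998 and 8.21 in mice 1 to 4 (mean 8.37 ± 0.83, SD, n = 4). Mice 2 and 3 were again nearly equal and high, and mouse 1 was lowest. The range of Orm2 was 3.37-fold, 1.74-fold without mouse 1 and 3.15-fold after quantile normalization. Orm1 (probe set 10505438) was measured at 11.81, 12.39, 12.40 and 12.20 (mean 12.20 ± 0.27, SD, n = 4). Mouse 1 was again lowest and mouse 4 next, but the range was 1.503-fold, 1.15-fold without mouse 1 and 1.30-fold after quantile normalization. The range of Orm1 was therefore no longer above 1.5-fold under either alternative, nor without mouse 3 (0.58 on the log2 scale). Orm3, which lies between Orm1 and Orm2 in the genome and is not among the 10 genes, was not above background (4.36, 5.21, 5.50 and 5.02). Its value exceeded the limit only in mouse 3. The orosomucoid genes are similar in sequence, and the sharing of signal between their probe sets was not tested.

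Hp encodes haptoglobin, which captures free hemoglobin. Hp (probe set 10581605) was measured at 12.61, 12.77, 12.76 and 12.70 in mice 1 to 4 (mean 12.71 ± 0.07, SD, n = 4) and varied least of the 10 genes. Its 1.12-fold range was exceeded or equalled by 90.2% of all genes above background, and the range was 1.05-fold without mouse 1 and 1.03-fold after quantile normalization. Apcs encodes serum amyloid P component, a pentraxin that is a major acute phase protein in mice and lies beside Crp in the genome. Apcs (probe set 10360328) was measured at 8.72, 9.03, 9.31 and 9.01 (mean 9.02 ± 0.24, SD, n = 4). Mouse 3 was highest and mice 2 and 4 were nearly equal, and the 1.51-fold range was 1.23-fold without mouse 1, 1.28-fold after quantile normalization and 0.31 on the log2 scale without mouse 3. Steap4 encodes a metalloreductase of iron and copper that is induced by tumor necrosis factor in adipocytes. Steap4 (probe set 10519497) was measured at 8.81, 9.41, 9.47 and 9.42 (mean 9.28 ± 0.31, SD, n = 4). Mice 2, 3 and 4 lay together, mouse 1 was lower, and the 1.58-fold range was 1.04-fold without mouse 1 and 1.36-fold after quantile normalization.

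The 10 genes thus showed different patterns between the mice. For Saa1, Saa2, Lcn2 and Orm2, mouse 4 lay between mouse 1 and mice 2 and 3, and the range remained above 1.5-fold both without mouse 1 and after quantile normalization. For Saa3 and Steap4, only mouse 1 was set apart, on the low side. Mouse 1 was set apart in this way for 2.72% of all genes above background, and any single mouse, on either side, for 5.75%. For Saa4, Orm1, Hp and Apcs, ranges were at most 1.51-fold, and at most 1.30-fold after quantile normalization. Under quantile normalization, mouse 1 was still lowest for all 10 genes, as for 36% of all genes above background. Mouse 4 was next for 9 of the 10 genes, with Hp as the exception, and this order was found for 18.2% of all genes. For Steap4, mouse 4 lay only just below mouse 3 (9.374 against 9.381). The range was then above 1.5-fold for 5 genes, namely Saa1, Saa2, Saa3, Lcn2 and Orm2, and for 10.6% of all genes above background.

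**Figure D3:**
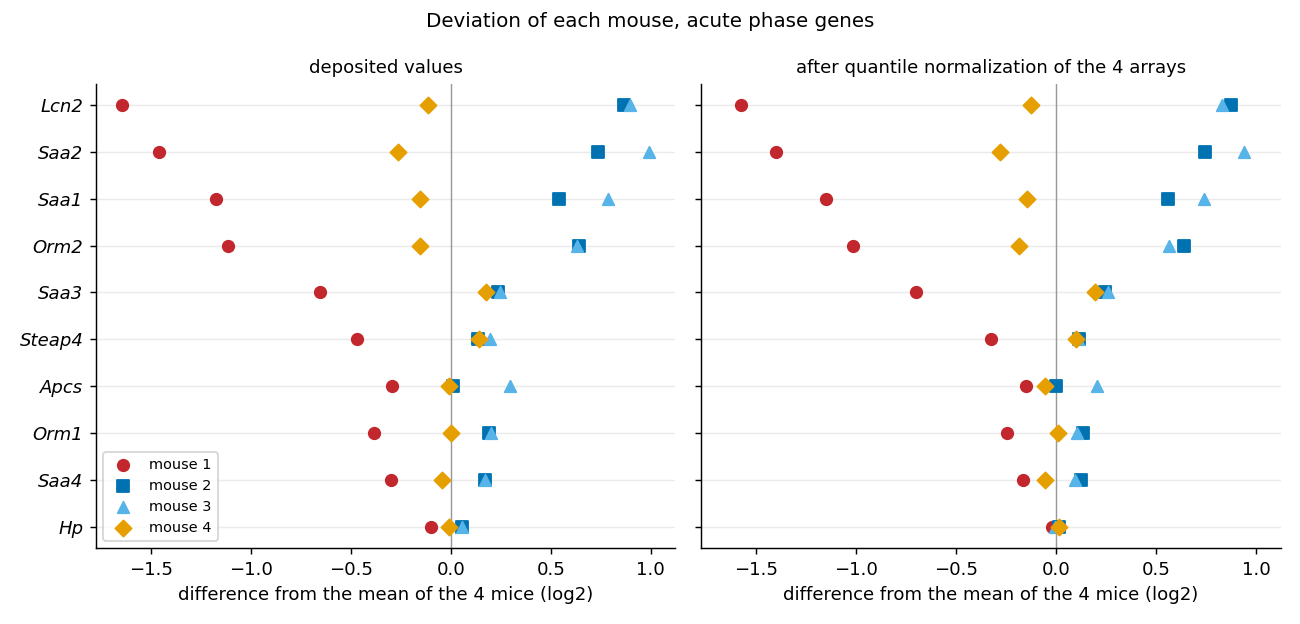
Difference of each mouse from the mean of the 4 mice (log2, horizontal axis) for the 10 acute phase genes, ordered by their range. The left panel shows deposited values and the right panel values after quantile normalization of the 4 arrays, and symbols stand for mice. For Lcn2, Saa2, Saa1 and Orm2, mice 2 and 3 lie to the right, mouse 4 near 0 and mouse 1 to the left in both panels.

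**Figure D4:**
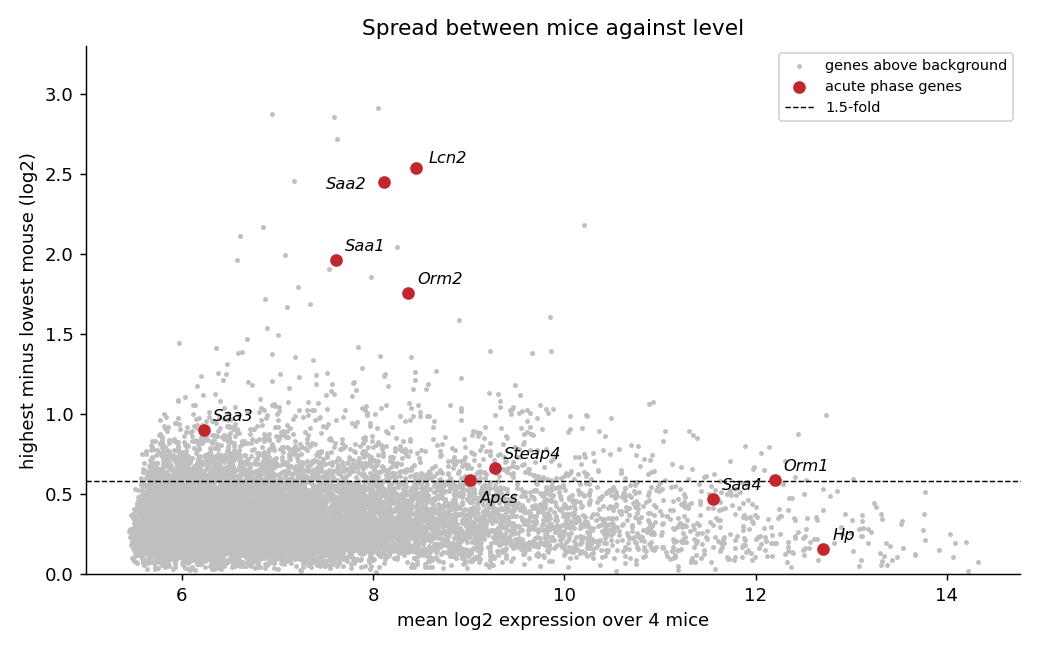
Highest minus lowest mouse (log2, vertical axis) against mean log2 expression over 4 mice (horizontal axis) for the 12265 genes above background in grey and the 10 acute phase genes in red. The dashed line marks 1.5-fold. Lcn2, Saa2, Saa1 and Orm2 lie among the widest ranges of all genes, and Hp near the bottom.

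To find the genes with the most similar pattern, deviations from the gene's own mean over the 4 mice were compared by the root mean square distance (log2) among the genes above background. With 4 mice from 1 group, this is a description. For Saa2, the closest genes were Lcn2 (0.14), Saa1 (0.21) and H2-Ab1 (0.26), and for Lcn2 they were Saa2 (0.14), Saa1 (0.29) and H2-Ab1 (0.29). No gene lay within 0.1 of either. For Saa1, the closest genes were BC023105 (0.06), Bcl6 (0.09) and Orm2 (0.10), and for Orm2 they were Bcl6 (0.05), BC023105 (0.06) and Zfp991 (0.09). Bcl6 encodes a transcriptional repressor and had values of 5.81, 7.42, 7.53 and 6.74. H2-Ab1 encodes a chain of the MHC class II molecules and was measured at 6.77, 8.56, 8.63 and 7.97. Within 0.1 of the pattern lay 3 genes for Saa1 and 5 for Orm2, but 69 for Saa3, 570 for Steap4, 1034 for Apcs and 1221 for Orm1. Distances were not scaled to the range of a gene, and most genes had small ranges (median log2 range 0.34). Few genes can therefore lie near a gene of wide range, such as Saa2, Lcn2, Saa1 or Orm2. The counts thus largely restate the ranges and do not measure how rare a pattern is. Closest were Alg3, Srd5a3 and Acnat2 to Saa3, Fam126b, Cnppd1 and Eral1 to Steap4, Zc3h12c, Vps39 and Arih1 to Apcs, and Csnk2a2, Vps26a and Vps25 to Orm1.

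Among 26 other positive acute phase genes, 21 had a probe set carrying only their symbol, of which 20 passed the background limit. Of these, 4 differed by more than 1.5-fold between the mice and 16 did not. Mt2, a metallothionein, was measured at 6.55, 7.63, 7.89 and 7.42 in mice 1 to 4. Mbl1, a mannose-binding lectin of complement activation, was measured at 9.21, 10.07, 10.22 and 9.80. Mt1 was measured at 7.87, 8.49, 8.56 and 8.06, and Serpina3n, a protease inhibitor, at 10.82, 11.41, 11.49 and 11.16. All 4 had their lowest value in mouse 1 and the next lowest in mouse 4, as 6 of the 20 genes did. After quantile normalization, 2 of the 20 genes exceeded 1.5-fold, and without mouse 1 none did. Itih4 (SD 0.02) and the heme-binding hemopexin gene Hpx (SD 0.02) varied least. The median difference of the 20 genes in mouse 1 was -0.07, close to that of all genes above background (-0.08), compared to -0.75 for the 10 acute phase genes described above. Both lists were chosen with earlier results of these data known, so this contrast is not independent of that choice.

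Negative acute phase genes encode plasma proteins whose hepatic output declines during the response. All 10 that were measured were above background, and 1, Apoa4, differed by more than 1.5-fold (11.94, 12.82, 12.74 and 12.27 in mice 1 to 4). Its range was 0.55 on the log2 scale, below 1.5-fold, without mouse 1. The order with mouse 1 lowest and mouse 4 next was found for 8 of the 10 negative acute phase genes and for 7 of 11 hepatocyte markers. Albumin (Alb, SD 0.03) and transthyretin (Ttr, SD 0.05) varied least. The median difference of the negative acute phase genes in mouse 1 was -0.15 and, after quantile normalization, -0.06.

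Of the cytokine signals that drive the response, 5 of 11 measured genes were above background and none differed by more than 1.5-fold. Interleukin 6 (Il6), Tnf, Osm, Lif, Il11 and Il10 were not above background, although Tnf exceeded the limit in mouse 1 (5.60) and Lif in mouse 2 (5.66). Il1b was measured at 5.54, 5.83, 5.70 and 5.39 in mice 1 to 4, close to the limit. The chemokine genes Cxcl1 (SD 0.06) and Ccl2 (SD 0.08) varied least. Of 13 measured receptor genes, 11 were above background and 4 differed by more than 1.5-fold. Il10rb, shared by the interleukin 10 and 22 receptors, was measured at 6.51, 7.06, 7.27 and 6.72. Osmr was measured at 5.85, 6.18, 6.48 and 5.88, and Tnfrsf1b at 6.55, 7.17, 6.91 and 6.67. These 3 genes were lower in mice 1 and 4 than in mice 2 and 3, whereas Lifr was higher in mice 1 and 4 (9.43, 8.95, 9.06 and 9.61). Without mouse 1, the ranges of Il10rb (0.55) and Tnfrsf1b (0.50) were below 1.5-fold. The interleukin 6 receptor gene Il6ra was measured at 7.32, 7.61, 7.42 and 7.30. Its signaling subunit Il6st (SD 0.11) and the adaptor Myd88 (SD 0.13) varied least among the receptor genes.

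Of 13 measured transcription factors and kinases of the response, 12 were above background and 1, Cebpa, differed by more than 1.5-fold. Cebpa had values of 9.91, 9.18, 9.31 and 9.72 and was thus highest in mouse 1, in which all 10 acute phase genes were lowest. Its range was 0.73 on the log2 scale, 0.90 after quantile normalization and 0.54 without mouse 1. Cebpb was measured at 7.57, 7.65, 7.53 and 7.46, Stat3 at 8.30, 8.48, 8.59 and 8.46, and Rela, a subunit of NF-kappaB, at 8.14, 8.41, 8.31 and 8.25. Cebpd was not above background. Jak2 (SD 0.04) and the glucocorticoid receptor gene Nr3c1 (SD 0.04) varied least. Of the feedback inhibitors, 7 of 8 were above background and 1, Zc3h12a, differed by more than 1.5-fold (5.57, 6.06, 5.46 and 6.01), but not after quantile normalization (log2 range 0.56). Socs3, a target of STAT3, was measured at 6.65, 6.48, 6.38 and 6.59. Its values were thus higher in mice 1 and 4, by less than 1.5-fold. Tnfaip3 (SD 0.07) and Ptpn11 (SD 0.07) varied least.

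Of 9 measured receptors and partners of the encoded proteins, 8 were above background. Cd36, a scavenger receptor, had values of 9.11, 9.85, 9.92 and 9.41 and was the only one to exceed 1.5-fold. It no longer did so after quantile normalization or without mouse 1. Lrp1 (SD 0.07) and Apoa2 (SD 0.10) varied least. Among 8 STEAP and lipocalin relatives above background, Steap2 (5.89, 6.37, 6.55 and 6.58) exceeded 1.5-fold, but not without mouse 1 (log2 range 0.21). Ambp (SD 0.06) and Steap3 (SD 0.07) varied least.

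Since several of the 10 genes are also expressed outside hepatocytes, markers of other cell types were measured in the same mice. All 11 measured hepatocyte markers were above background and none differed by more than 1.5-fold, with the smallest SD for Apob (0.04) and F2 (0.05). Of 12 neutrophil markers, 2 were above background, namely S100a9 (SD 0.17) and Camp (SD 0.07). The other 10 did not pass the limit in every mouse, and S100a8, Ly6g and Ngp passed it in none. Mpo (5.86, 5.52, 5.66 and 5.27) was below its limit only in mouse 4, and Elane (5.83, 5.28, 5.52 and 5.53) only in mouse 2. Ltf (5.40, 5.50, 4.99 and 4.95) exceeded the limit in mouse 2. The mean level of all 12 was between 4.82 and 5.08, below the background limit of every array, and its highest value was in mouse 1. That array also had the highest background limit (5.52) and receptor median (3.75 against 3.54 to 3.61). Of the 10 markers not above background, Csf3r had the largest SD (0.63). It was measured at 6.39, 4.95, 5.35 and 5.27, and its value in mouse 1 exceeded the limit of that array. The part of background in the mean of mouse 1 was not tested. Of 11 macrophage markers, 10 were above background, with a mean level of all 11 between 7.30 and 7.39. Marco (7.06, 6.31, 6.14 and 6.63) and Vsig4 (7.90, 8.37, 8.55 and 8.53) exceeded 1.5-fold, in opposite directions in mouse 1. Without mouse 1 neither did (log2 ranges 0.49 and 0.18), and after quantile normalization Vsig4 did not (0.48). Cd5l (SD 0.09) and Trem2 (SD 0.11) varied least. Of 6 measured adipocyte markers, 3 were above background and Adipoq and Lep were not. Plin1 (6.32, 5.90, 5.36 and 5.49) and Tmem120b (6.90, 6.25, 6.51 and 6.61) exceeded 1.5-fold, but not without mouse 1 (log2 ranges 0.55 and 0.36). Retn (SD 0.25) varied least. The part of these cell types in the acute phase values was not tested.

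Pancreatic acinar markers above background were higher in mice 1 and 4 than in mice 2 and 3, opposite to Saa1, Saa2, Lcn2 and Orm2. Of 3 markers not above background, Pnliprp1 and Try4 did likewise, whereas Cuzd1 (5.38, 5.46, 5.54 and 6.00) was lowest in mouse 1. Of 13 measured acinar genes, 10 were above background and all 10 exceeded 1.5-fold, also without mouse 1. Compared to the other mice, their median difference was 1.37, -1.50, -1.09 and 1.18 in mice 1 to 4, and the mean level of all 13 was between 5.78 and 7.71. The enzyme gene Ctrb1 was measured at 9.49, 6.58, 7.14 and 9.01. The acinar genes Ctrl, Cpa1, Cpb1 and Rnase1 followed by SD (1.41, 1.33, 1.21 and 1.17), and Cela2a (0.86) and Prss2 (0.62) had the smallest SDs. The part of acinar transcripts in the acute phase values was not tested.

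**Figure D5:**
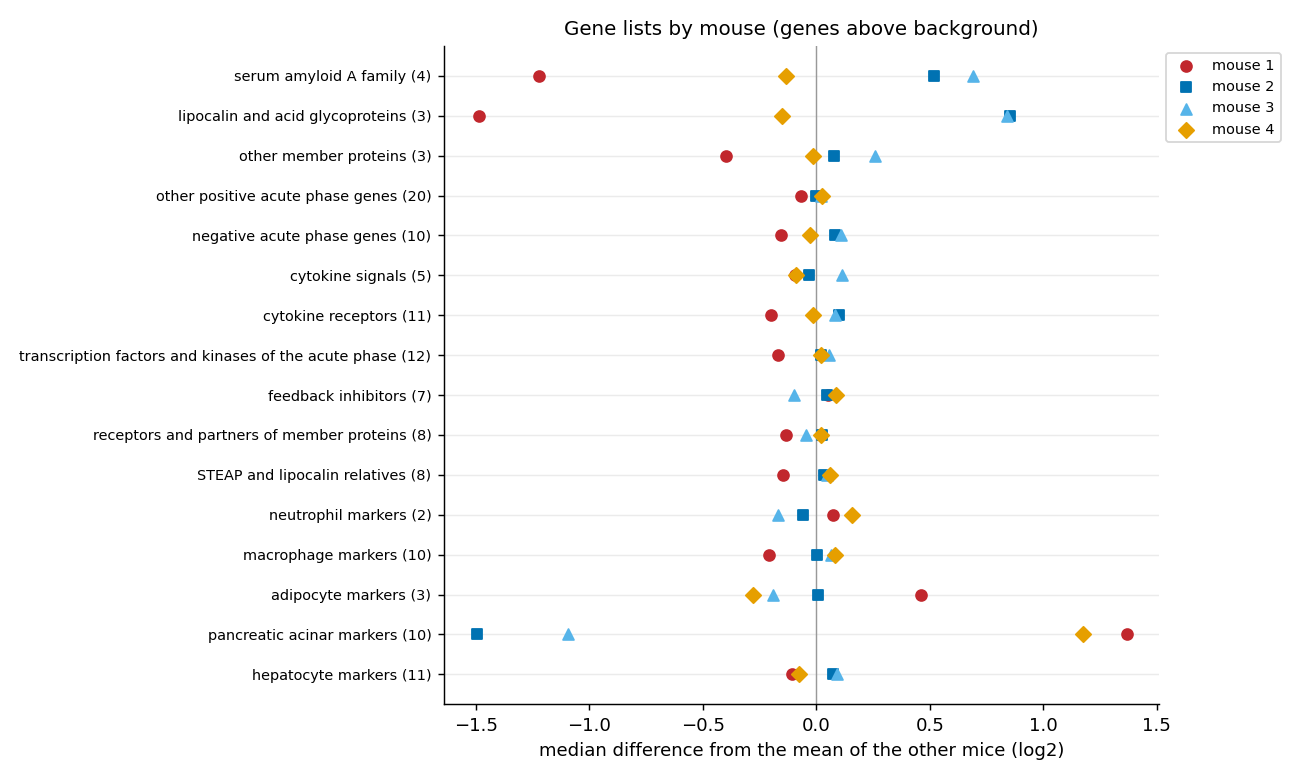
Median difference of each mouse, compared to the mean of the other 3 (log2, horizontal axis), for each gene list, with the number of genes above background in parentheses. Symbols stand for mice, and the top 3 lists hold the 10 acute phase genes. Mouse 1 lies far to the left for the serum amyloid A family (-1.22) and the lipocalin and acid glycoproteins (-1.49), and far to the right for pancreatic acinar markers (1.37).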

How the data were processed

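The authors' values are log2 expression values of Mouse Gene 1.0 ST arrays, which they deposited after RMA. The submitters' processing notes name the Affymetrix Expression Console. RMA corrects background, normalizes quantiles and combines probes by median polish, and quantile normalization can shrink differences between arrays. Which arrays were normalized together, and a genome build, are not given in the sources used here. All 4 columns were matched to a mouse, and 0 remained without a sample. No pair of arrays shared more than 25 identical values over 35556 probe sets. Of these probe sets, 21789 had 1 symbol, 1621 several and 12146 none in the platform annotation. Only those with 1 symbol were used, and a gene with several was represented by the probe set of highest mean.

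Means, SDs and confidence intervals were computed with limma 3.58.1 (lmFit, eBayes) in R 4.3.3 and with Python 3.11.15, numpy 2.4.6 and pandas 2.3.3. The fits and ranges were run on simulated data as a check of the code. The simulated shift was far above the simulated spread, and coverage was averaged over all genes. These runs therefore do not show how well the intervals hold for genes of wide spread, such as Lcn2. Promoters were aligned with Biopython 1.88. The 10 genes and all gene lists were chosen with earlier results of these data known, as was the background limit. Beyond the 10 genes, genes were named by a rule. It took from each list those above 1.5-fold (at most 5 by SD) and the 2 with the smallest SD, known regulators of the response, and the 3 genes closest in pattern to each of the 10 genes above 1.5-fold. Orm3, Crp, Socs3 and the markers reported as not above background were named beyond this rule. The number of arrays limits the precision.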

Additional observations from a re-analysis of the deposited data

Results flagged for a closer look

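In 8 of 73 named genes, 1 mouse stood apart from the other 3, by a gap that took up most of the range of the gene. In each case this was mouse 1, which was lower than the mean of the other mice. The difference on the log2 scale was -0.87 for Saa3 and -0.63 for Steap4. It was -0.91 for Alg3, -0.91 for Srd5a3, -0.81 for Acnat2, -0.62 for Fam126b, -0.61 for Cnppd1 and -0.61 for Eral1. These 6 genes had been named for their likeness to Saa3 or Steap4 and share the pattern by construction. Of the 12265 genes above background, 2.72% had mouse 1 apart on the low side, and 5.75% had any single mouse apart on either side. Chance flags about 1 in 20 genes, counting any mouse on either side.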

How the results depend on the processing

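With a 2-fold limit in place of 1.5-fold, 4 of the 10 acute phase genes and 138 of all genes differed between mice. After quantile normalization, with the 1.5-fold limit, 5 of the 10 and 1296 of all genes did so. Without a filter on low values, the count at 1.5-fold was 8 for the acute phase genes and 3749 for all 19938 genes. With 1 mouse left out, the count was 4 to 8 for the acute phase genes and 346 to 1295 for all genes, the lowest without mouse 1 in both cases. The background limit was then applied to the remaining mice only, which left 12364 to 12761 genes above it. Leaving out 1 mouse gave log2 ranges of 0.94 to 1.96 for Saa1, 1.25 to 2.45 for Saa2, 0.073 to 0.90 for Saa3, 0.22 to 0.47 for Saa4, 1.01 to 2.54 for Lcn2, 0.20 to 0.59 for Orm1, 0.80 to 1.75 for Orm2, 0.068 to 0.16 for Hp, 0.30 to 0.59 for Apcs and 0.058 to 0.66 for Steap4. The lowest came without mouse 1 for each gene. The range of Hp was 0.24 with median-centred arrays and 0.040 after quantile normalization. All 70 levels and 24 median differences recomputed under the alternatives moved by less than the SD between mice, as did 57 of 70 ranges. Most of the levels could not move that far, so these counts do not measure robustness. Leaving out 1 of 4 mice cannot move a mean by 1 SD, and centring the arrays leaves it unchanged. Each of the 10 genes has 1 probe set, so averaging over probe sets changes nothing. A range stays the same when the mouse left out is neither highest nor lowest. The median difference of mouse 4, which was near 0, lay between -0.21 and 0.12 with 1 mouse left out. Those of mice 2 and 3 were lowest without mouse 1, at 0.10 and 0.20. With the 99th percentile as background limit, 9 of the 10 genes remained above it, without Saa3. Of all 19938 genes, 8898 were above this limit, compared to 12265 in the main setting. Apart from the mice left out, the cause was not tested. Signal over background limits Saa3. No paired analysis was possible because only 1 group was analysed.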
